A study of Cladosporium europaeum with 50 samples.

Results

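The transcripts described here are the 261 genes that the authors listed as changed when the fungus Cladosporium europaeum strain F32 had grown for 96 h with the polychlorinated biphenyl PCB153, out of 920 genes listed in any comparison of the series. They were taken as all entries of that single comparison, and their names were joined by gene identifier. Mycelium of the PCB153 group grew in mineral liquid with 6 mg/L PCB153 and 5 g/L glucose (5 replicates), and control mycelium of the same age grew with 0 mg/L PCB and 5 g/L glucose (5 replicates), so glucose was present in both. Strain F32 came from soil with a long history of PCB pollution, and the labels name no carrier solvent. Nothing in the labels says that replicates were separate cultures, and p-values here refer to the spread between samples, which may be technical. PCB153 is a hexachlorobiphenyl. It carries the chlorines of the pentachlorobiphenyl PCB101 and a further chlorine, as PCB101 does those of the tetrachlorobiphenyl PCB52, and PCB180, a heptachlorobiphenyl, carries those of PCB153 and a further chlorine.

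PCBs are a pair of joined benzene rings bearing chlorine, and heavily chlorinated members resist breakdown. Fungi break down plant and synthetic aromatic compounds by first adding hydroxyl groups, mostly with cytochrome P450 or flavin monooxygenases, and then opening the hydroxylated ring with dioxygenases, after which the products enter central metabolism through the beta-ketoadipate route. Filamentous fungi also use quinate and purines as alternative sources of carbon and nitrogen, by dedicated sets of enzymes.

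Of 10874 genes behind the authors' adjustment, 2.4% were listed, of which 198 (1.82%) rose and 63 (0.579%) fell. Every listed gene had an adjusted p under 0.05 and a log2 fold change of at least 1 in size, so every count below describes a list selected on this comparison and is no test of a function. The 198 rises are 75.9% of the list, and the split of each gene group below is to be read beside that share. The ranks behind the adjusted p-values show that at least 125 further genes had an adjusted p under 0.05 but stand outside this list. A gene outside the list is not shown to be unchanged. The files hold 1 log2 fold change, 1 standard error (SE) and 1 mean normalized count per gene, and values per sample and library depth were not analysed here. The comparison therefore cannot show which of the 5 treated or 5 control samples were high or low. A change in RNA per cell and a change in the share of cells expressing a gene cannot be told apart in whole mycelium.

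The listed response was upward and uneven in size. Rises had a median log2 fold change of 1.68 and reached 4.66, whereas the 63 falls had a median of -1.19 and went no further than -1.63, all from the authors' deposited table. Given the errors, 52 of 261 genes had a 95% normal interval lying wholly past a log2 fold change of 1, of which 51 rose and 1, an unannotated gene, fell. The smallest fold changes inside the threshold belonged to a major facilitator transporter (ptg000007l.737, 1.0 ± 0.3) and a SAC domain protein (ptg000003l.130, -1.01 ± 0.27) in the authors' deposited table, the log2 fold change and its SE being given here and below as value ± SE. An adjusted p of 0.0498 stood just inside the other threshold in the authors' deposited table, for a BTB domain protein (ptg000015l.446). Expression level varied widely among them: in the authors' deposited table the lowest mean normalized count was 10.6, the median 413 and the highest 17956.

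**Figure D1:**
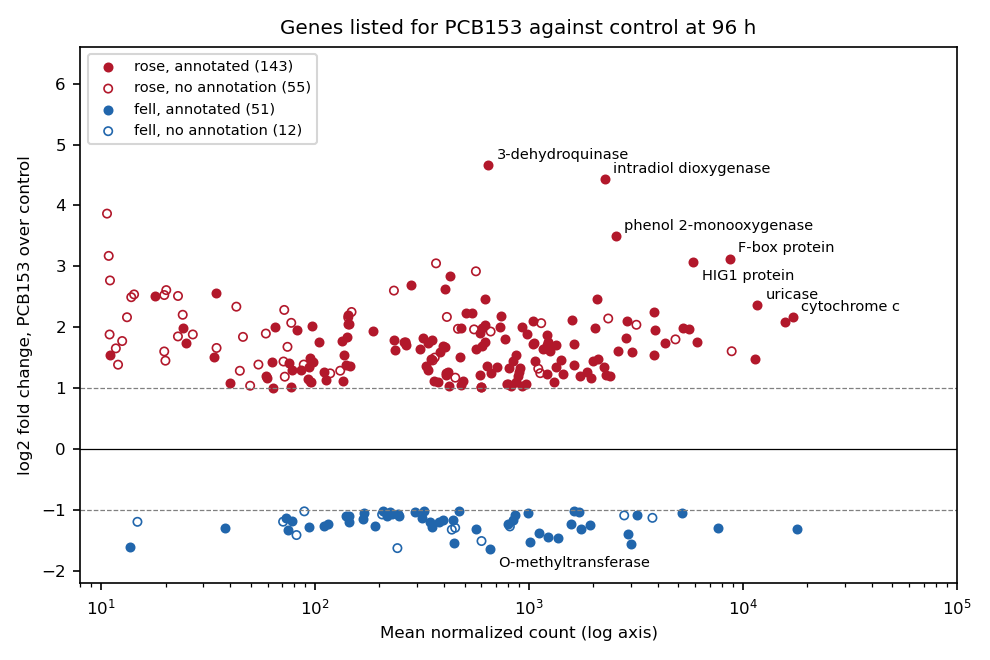
Each point is 1 gene listed for PCB153 at 96 h, with its mean normalized count on a log axis and its log2 fold change of PCB153 over control. Filled points are the 194 annotated genes and open points the 67 without annotation, and dashed lines mark the listing threshold of 1 in either direction. The rises extend to 4.66 and the falls only to -1.63.

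The 3 rises with the highest lower bounds of their 95% intervals were in genes of aromatic ring and quinate breakdown. Catabolic 3-dehydroquinase (ptg000008l.233), which turns dehydroquinate into dehydroshikimate on the way to protocatechuate, stood 25.3-fold above control with a 95% interval that began at 8.73-fold, from the authors' deposited table. An intradiol dioxygenase (ptg000021l.252), of the enzyme type that splits catechols between the hydroxyl groups, was 21.6-fold above control with an interval from 8.22-fold, and phenol 2-monooxygenase (ptg000007l.259), a flavoprotein that hydroxylates phenol to catechol, 11.3-fold with an interval from 5.69-fold, from the authors' deposited table. Their log2 fold changes were 4.66 ± 0.78, 4.43 ± 0.71 and 3.49 ± 0.5, with adjusted p of 4.27e-06, 1.04e-06 and 1.03e-08, in the authors' deposited table. By the fold change itself, the unannotated gene ptg000021l.664, at 3.87 ± 0.93 and a mean count of 10.6, stood between the dioxygenase and phenol 2-monooxygenase in the authors' deposited table. Their mean normalized counts of 645, 2269 and 2544 in the authors' deposited table lie above the median of the listed genes.

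The group of 8 aromatic ring and quinate genes reached further down the route, 7 rising and 1 falling. Benzoate 4-monooxygenase (ptg000027l.308), a P450 that makes hydroxybenzoate, had the smallest adjusted p of the comparison, 9.03e-11, at 2.11 ± 0.27 in the authors' deposited table. A second intradiol dioxygenase (ptg000008l.232) had 1.48 ± 0.3, and a carboxymuconate lactonizing enzyme (ptg000015l.409), which closes the product of ring cleavage into a lactone in the beta-ketoadipate route, had 1.25 ± 0.34 in the authors' deposited table. A protein with a carboxymuconolactone decarboxylase-like domain (ptg000015l.273), a domain named for the following step in bacteria, had 2.0 ± 0.39 in the authors' deposited table. The member that fell was fumarylacetoacetase (ptg000019l.398), the last enzyme of tyrosine breakdown, which opens no ring, at -1.29 ± 0.38 and a high mean count of 7644 in the authors' deposited table. The median log2 fold change of its 7 rises was 2.11, beside 1.68 for all 198 rises.

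Other oxygenases and oxidoreductases went in both directions. Besides the benzoate enzyme, the P450 proteins were ptg000007l.258 at 2.01 ± 0.39, ptg000005l.898 at 1.64 ± 0.42, a pisatin demethylase (ptg000006l.130), named for a P450 that detoxifies a pea phytoalexin in other fungi, at 1.16 ± 0.25, and ptg000019l.531 at -1.26 ± 0.35 in the authors' deposited table. A cytochrome b5 domain protein (ptg000019l.135), of the haem proteins that can pass electrons to such enzymes, had 2.12 ± 0.61 in the authors' deposited table. Of the 13 flavin, NAD(P) and other oxidoreductases 7 rose and 6 fell. The largest rises among them were an FAD-binding protein (ptg000015l.287, 2.47 ± 0.51), a flavin-nucleotide-binding protein (ptg000027l.587, 2.0 ± 0.49), an NADP-dependent oxidoreductase (ptg000002l.342, 1.97 ± 0.57) and an enoyl reductase domain protein (ptg000035l.87, 1.95 ± 0.58) in the authors' deposited table. An FAD-binding PCMH-type protein (ptg000032l.13) had a smaller change of 1.84 ± 0.24 at the second smallest adjusted p, 2.47e-10, in the authors' deposited table. The falls were an NmrA-like protein (ptg000010l.706, -1.6 ± 0.42), a PRISE-like protein (ptg000012l.341, -1.56 ± 0.37), an FMN-linked oxidoreductase (ptg000016l.690, -1.54 ± 0.37) and an alcohol oxidase (ptg000015l.169, -1.45 ± 0.42), followed by an enoyl reductase domain protein (ptg000003l.339) and a dihydroxypyridine monooxygenase domain protein (ptg000002l.374) near -1.04 and -1.03, in the authors' deposited table.

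All 8 listed genes of purine breakdown and the molybdenum cofactor rose. Uricase (ptg000009l.79), which oxidises urate to hydroxyisourate, had 2.37 ± 0.48, a 5.16-fold rise, at a mean normalized count of 11677 in the authors' deposited table. The enzymes that act next on its product were also listed: hydroxyisourate hydrolase (ptg000027l.529) had 1.54 ± 0.39, and a protein with the decarboxylase domain that yields allantoin (ptg000016l.128) had 1.74 ± 0.5 in the authors' deposited table. Allantoicase (ptg000012l.230), which releases urea from allantoate, had 1.83 ± 0.42 in the authors' deposited table. Upstream of urate, adenine deaminase (ptg000002l.379), which makes hypoxanthine, had 2.11 ± 0.55 and an IMP-specific nucleotidase (ptg000008l.378) had 1.2 ± 0.38 in the authors' deposited table. A pair of members serve the molybdenum cofactor that xanthine dehydrogenase and nitrate reductase need, a molybdopterin synthase subunit (ptg000012l.314) at 1.73 ± 0.53 and the cofactor sulfurase (ptg000015l.208) at 1.2 ± 0.3 in the authors' deposited table. The smallest of the 8 adjusted p was 0.000318 and the largest 0.0456 in the authors' deposited table, with 4 of 8 under 0.01. The median log2 fold change of these 8 rises was 1.74, close to the 1.68 of all 198 rises.

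**Figure D2:**
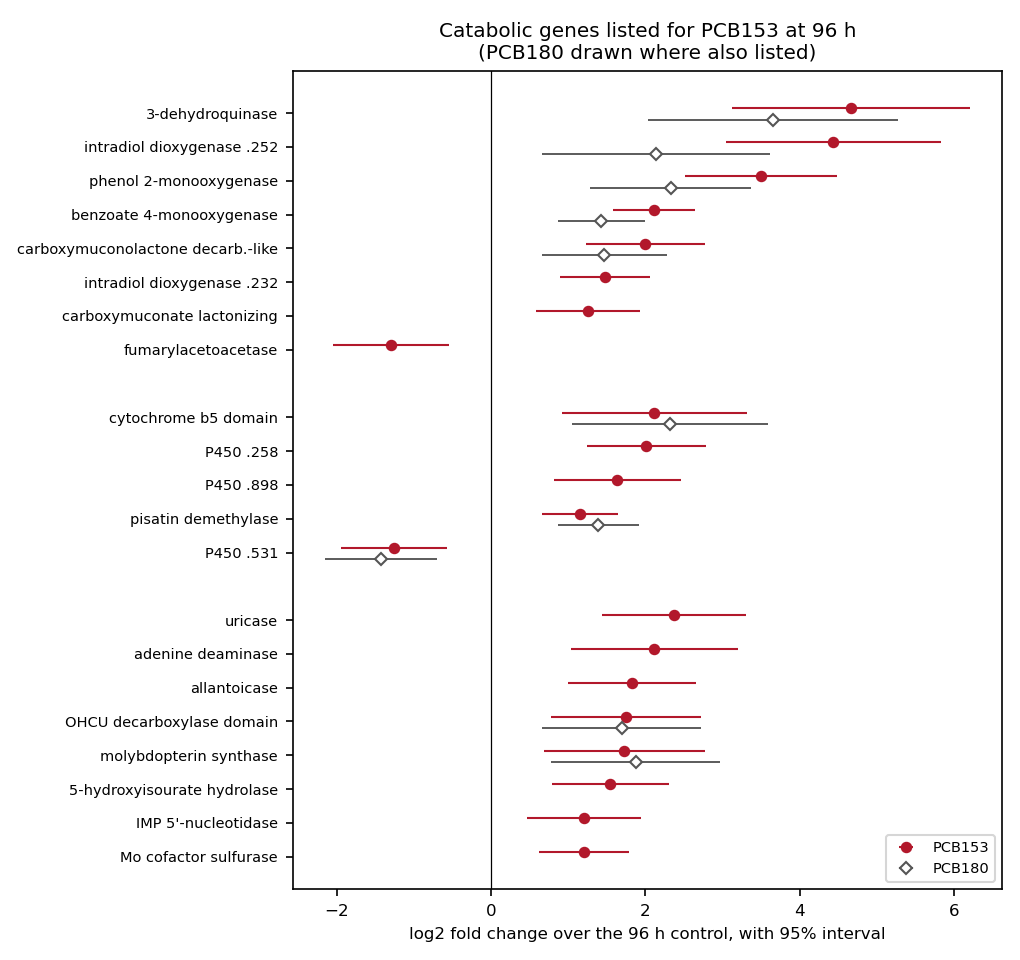
Log2 fold changes over the 96 h control with 95% intervals for the genes of aromatic ring and quinate breakdown, of cytochrome P450 and b5, and of purine breakdown and the molybdenum cofactor. Filled circles are PCB153 and open diamonds PCB180 where the gene was listed for it too, and both share the same control samples. The interval of 3-dehydroquinase for PCB153 begins at 3.13, and those of all 8 purine genes lie above 0.

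Of the 5 listed genes of amino acid metabolism 4 rose, and of the 10 of carbon and lipid metabolism 8 rose, shares close to the 75.9% of the whole list. Aspartate aminotransferase (ptg000027l.191) had 1.99 ± 0.47, ATP phosphoribosyltransferase (ptg000006l.185), the first enzyme of histidine synthesis, 2.23 ± 0.63, 4-aminobutyrate aminotransferase (ptg000006l.412) 1.2 ± 0.3 and a methionine synthase domain protein (ptg000002l.554) 1.03 ± 0.3, while an aminotransferase of class I and II (ptg000016l.688) had -1.33 ± 0.32, in the authors' deposited table. In carbon and lipid metabolism, NADP-dependent mannitol dehydrogenase (ptg000021l.121), which interconverts mannitol and fructose, had 1.99 ± 0.5, acetyl-CoA hydrolase (ptg000009l.621) 1.96 ± 0.47 and malic enzyme (ptg000010l.272), a source of NADPH, 1.74 ± 0.34 in the authors' deposited table. Acyl-CoA desaturase (ptg000021l.433) had 1.71 ± 0.49, squalene monooxygenase (ptg000007l.604), an early enzyme of ergosterol synthesis, 1.59 ± 0.48 and an acyl-CoA-binding domain protein (ptg000017l.201) 1.76 ± 0.53 in the authors' deposited table. Lipase 2 (ptg000005l.509) had 1.48 ± 0.4 and a protein with a phospholipase effector domain (ptg000006l.397) 1.37 ± 0.29 in the authors' deposited table. The falls in this group were small, a wax synthase domain protein (ptg000003l.548) at -1.03 ± 0.24 and the SAC domain protein given above.

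Genes of conjugation, ester hydrolysis and redox defence split 10 to 5. An N-acetyltransferase domain protein (ptg000009l.300) had 2.63 ± 0.71, a pair of EthD domain proteins 2.03 ± 0.49 (ptg000021l.26) and 1.95 ± 0.54 (ptg000027l.10), and an epoxide hydrolase (ptg000010l.624), of a family that opens reactive epoxides to diols, 1.5 ± 0.32 in the authors' deposited table. The 3 carboxylic ester hydrolases had log2 fold changes of 1.13 to 1.54 in the authors' deposited table. An acyl-CoA N-acyltransferase (ptg000027l.598) had 1.48 ± 0.45 at the high mean count of 11395 in the authors' deposited table. The falls were an O-methyltransferase (ptg000005l.141), the largest fall of an annotated gene, at -1.63 ± 0.42, a calcium-dependent phosphotriesterase (ptg000002l.13) at -1.23 ± 0.33, and 3 proteins tied to glutathione or thiols in the authors' deposited table. Those 3 were glutathione hydrolase (ptg000015l.107) at -1.15 ± 0.33, a glutathione S-transferase domain protein (ptg000019l.530) at -1.07 ± 0.25 and a thioredoxin domain protein (ptg000002l.457) at -1.01 ± 0.28 in the authors' deposited table. Such genes did not all fall, since another protein with a thioredoxin-type (TRX) domain (ptg000002l.302) rose at 1.35 ± 0.32 in the authors' deposited table.

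Respiration, import and assembly in mitochondria had 8 listed genes, of which 7 rose, led by a HIG1 domain protein (ptg000018l.327), of a family that attends respiratory complexes, at 3.08 ± 0.61 in the authors' deposited table. Cytochrome c (ptg000005l.402) had 2.17 ± 0.51 at a mean normalized count of 17121, the import motor subunit TIM14 (ptg000009l.107) 1.87 ± 0.5, a cytochrome c oxidase assembly factor (ptg000002l.417) 1.71 ± 0.47 and the chaperone BCS1 (ptg000011l.102), which in yeast inserts the Rieske protein into complex III, 1.69 ± 0.46 in the authors' deposited table. The assembly factor COX23 (ptg000015l.37), which in yeast takes part in building cytochrome c oxidase, had 1.76 ± 0.48, and a PRELI domain protein (ptg000018l.35), of a family that moves phospholipids between the mitochondrial membranes, 1.23 ± 0.31 in the authors' deposited table. The protein that fell was named for altered inheritance of mitochondria (ptg000018l.383, -1.12 ± 0.32), in the authors' deposited table.

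All 14 listed genes placed with the ribosome and translation rose, with a median log2 fold change of 1.73, beside 1.68 for all 198 rises, and the split of either group was not tested against the 75.9% of the list. They hold 8 ribosomal proteins, of which 5 bear a mitochondrial mark in the name, and the 8 spanned 1.05 to 2.19 in the authors' deposited table. Among them bL33m of the large subunit (ptg000021l.537) had 2.19 ± 0.6, mS33 of the small subunit (ptg000010l.315) 1.9 ± 0.52, bS6m (ptg000016l.68) 1.35 ± 0.42 and a mitochondrial S36 (ptg000018l.499) 1.21 ± 0.38, while those named uS13 (ptg000015l.361) and uS19 (ptg000003l.671) had 1.81 ± 0.46 and 1.77 ± 0.46, in the authors' deposited table. Only 1 of these 8 had an adjusted p under 0.01. The other 6 act on translation in other ways, and several lie outside mitochondria. YAE1 (ptg000012l.437), which in yeast helps mature an iron-sulphur protein of ribosome recycling, had 2.24 ± 0.45, and the diphthamide proteins (ptg000015l.380 and ptg000005l.518), which modify elongation factor 2, had 1.77 ± 0.54 and 1.65 ± 0.53 in the authors' deposited table. A Rei1-type zinc finger protein (ptg000012l.368), a factor of large subunit maturation in yeast, had 1.52 ± 0.43, and the amidotransferase subunit for glutaminyl-tRNA (ptg000010l.341), at a mean count of 15822, had 2.08 ± 0.49 in the authors' deposited table. In RNA synthesis and processing 8 of 9 rose, including RNA polymerase subunits RPAC2 (ptg000010l.535, 2.04 ± 0.56) and RPABC5 (ptg000005l.367, 1.75 ± 0.39), transcription initiation factor TFIID subunit 13 (ptg000018l.273, 1.65 ± 0.5) and pre-mRNA processing factor 17 (ptg000007l.55, 1.55 ± 0.37) in the authors' deposited table. The RNA14 protein (ptg000006l.232), which in yeast takes part in cutting the ends of mRNA, had 1.03 ± 0.27 in the authors' deposited table. The exception was an RRM domain protein (ptg000003l.539) at -1.24 ± 0.22 in the authors' deposited table.

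**Figure D3:**
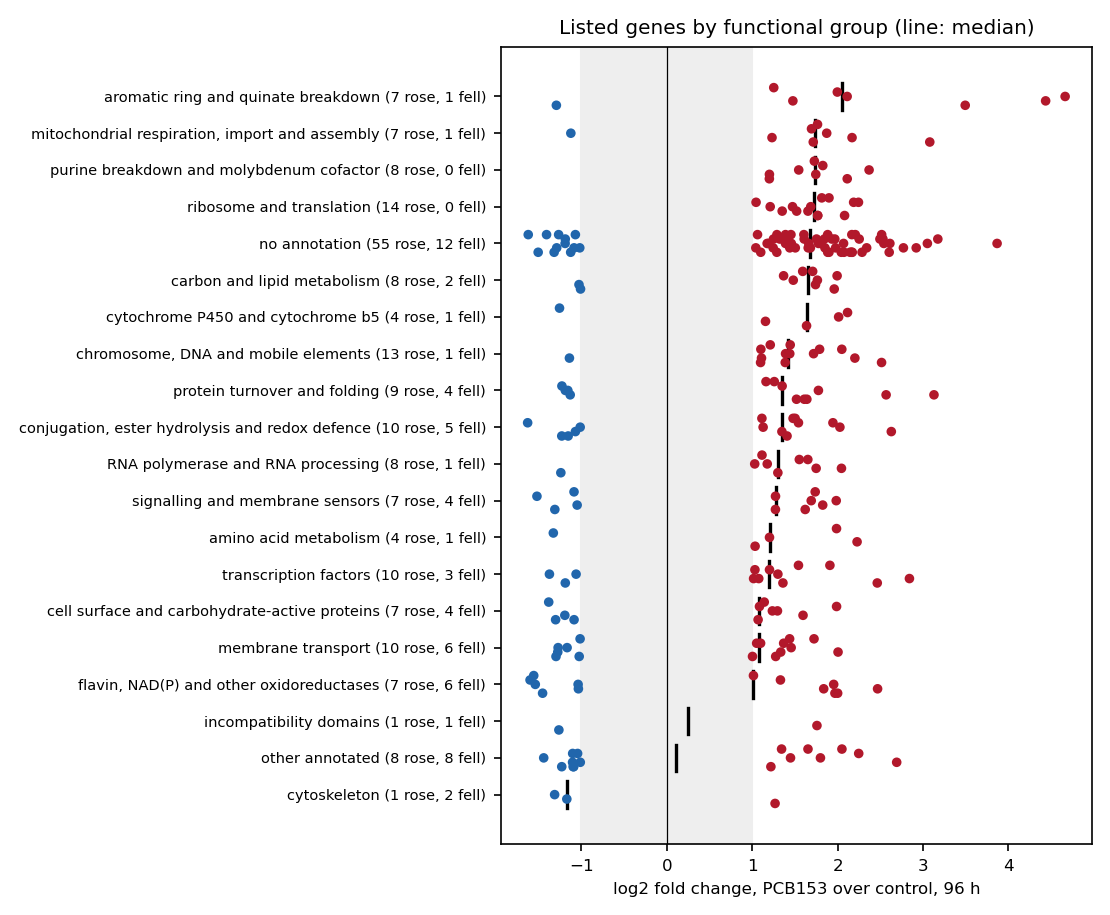
Each point is the log2 fold change of 1 listed gene, red where it rose and blue where it fell with PCB153, in 18 functional groups, the remaining annotated genes and the genes with no annotation. Black lines are group medians, the vertical offset of points has no meaning, and the grey band marks the fold changes that the list leaves out. The medians run from 2.05 for aromatic ring and quinate breakdown to -1.17 for the 3 cytoskeleton genes.

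Regulators were also among the listed genes. Of 13 transcription factors 10 rose and 3 fell. The Zn(2)-C6 family, found only in fungi and close relatives, split 5 to 2, with ptg000015l.431 at 1.91 ± 0.26 and the third smallest adjusted p of the comparison, 7.7e-10, in the authors' deposited table. The largest rises were C2H2 zinc finger proteins, ptg000021l.85, annotated also as an AKT kinase, at 2.84 ± 0.65, and ptg000002l.310 at 2.46 ± 0.44, in the authors' deposited table. The 3 falls were a C2H2 protein (ptg000009l.681) at -1.37 ± 0.27 and the Zn(2)-C6 proteins ptg000017l.119 at -1.19 ± 0.32 and ptg000027l.184 at -1.06 ± 0.33, in the authors' deposited table. In signalling 7 rose and 4 fell. Nitrogen permease regulator 3 (ptg000019l.46), which in yeast restrains TOR signalling when amino acids are short, had 1.98 ± 0.46, and rhodopsin domain membrane proteins had 1.83 ± 0.47 (ptg000006l.184) and 1.69 ± 0.37 (ptg000006l.186) in the authors' deposited table. A protein kinase (ptg000027l.189) had 1.62 ± 0.34, a histidine kinase (ptg000011l.130) 1.27 ± 0.34 and the Ras-related RSR1 (ptg000017l.164), which in yeast marks bud sites, 1.27 ± 0.25 in the authors' deposited table. The falls were a CASTOR ACT domain protein (ptg000021l.435, -1.52 ± 0.45), a tyrosine-specific protein phosphatase (ptg000006l.176, -1.31 ± 0.39), a putative cell signalling protein (ptg000016l.335, -1.09 ± 0.29) and a PAS domain protein (ptg000017l.43, -1.05 ± 0.3) in the authors' deposited table.

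Membrane transport was divided, 10 genes rising and 6 falling. The 9 major facilitator proteins, which carry small solutes, split 5 to 4 and their extremes were 1.44 ± 0.46 (ptg000016l.287) and -1.3 ± 0.32 (ptg000016l.75) in the authors' deposited table. Of the others, a pair annotated with an ER transporter domain had 2.0 ± 0.56 (ptg000008l.397) and 1.28 ± 0.38 (ptg000003l.117), V-type ATPase subunit F (ptg000017l.462), of the pump that acidifies vacuoles, 1.72 ± 0.45 and an amino acid transporter (ptg000005l.832) 1.1 ± 0.33, while a vacuolar calcium transporter (ptg000017l.223) had -1.17 ± 0.27 and a potassium transport protein (ptg000021l.601) -1.02 ± 0.26 in the authors' deposited table.

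Genes of protein turnover and folding split 9 to 4. An F-box protein (ptg000002l.449), of the subunits that pick targets for ubiquitin ligases, had 3.13 ± 0.65 at a mean normalized count of 8687, and an RBR-type ubiquitin ligase (ptg000021l.123) had 2.57 ± 0.42 at a mean of only 34.5 in the authors' deposited table. Endoplasmic oxidoreductin-1 (ptg000016l.235), which forms disulphide bonds in the ER, had 1.61 ± 0.39 and a peptidyl-prolyl isomerase (ptg000009l.109) 1.64 ± 0.5 in the authors' deposited table. A protein with a domain of anaphase-promoting complex subunit 4 (ptg000012l.197), part of a ubiquitin ligase of the cell cycle, had 1.78 ± 0.36 in the authors' deposited table. The falls were 3 peptidases, namely a carboxypeptidase (ptg000005l.620, -1.23 ± 0.36), a serine carboxypeptidase (ptg000027l.510, -1.16 ± 0.28) and an S33 peptidase (ptg000010l.404, -1.13 ± 0.27), and a proteasome assembly chaperone (ptg000002l.94, -1.19 ± 0.34), in the authors' deposited table. Genes of chromosomes, DNA and mobile elements split 13 to 1. A DNA helicase (ptg000017l.1) had 2.51 ± 0.62 at a mean count of only 17.9, centromere protein S (ptg000008l.414) 2.05 ± 0.61, the kinetochore protein SPC19 (ptg000012l.541) 1.79 ± 0.5 and DNA ligase (ptg000016l.246) 1.21 ± 0.31 in the authors' deposited table. EAF6 (ptg000009l.898), a subunit of histone acetyltransferase complexes in yeast, had 1.45 ± 0.44 and a Swi5 domain protein (ptg000010l.609), of a family that helps recombination, 1.39 ± 0.37 in the authors' deposited table. A pair of reverse transcriptases had 1.44 ± 0.43 (ptg000006l.10) and 1.39 ± 0.44 (ptg000027l.597) in the authors' deposited table. Proteins with a HAT dimerisation domain, typical of DNA transposases, split 3 to 1, from 2.2 ± 0.64 (ptg000011l.40) to -1.14 ± 0.36 (ptg000005l.895) in the authors' deposited table, and such repeated elements may share reads between copies.

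At the cell surface 7 genes rose and 4 fell. A galactosyl transferase (ptg000009l.24) had 1.99 ± 0.59, cellulose-binding proteins had 1.6 ± 0.5 (ptg000012l.449) and 1.3 ± 0.33 (ptg000016l.218), and a beta-glucosidase (ptg000008l.31) had 1.24 ± 0.37 in the authors' deposited table. The falls were a CFEM domain protein (ptg000009l.447), a secreted fungal domain type, at -1.38 ± 0.28, a family 2 glycosyltransferase (ptg000005l.397) at -1.3 ± 0.31, a rhamnosidase (ptg000005l.602) at -1.19 ± 0.38 and a Mid2 domain protein (ptg000019l.68) at -1.09 ± 0.28 in the authors' deposited table. The glycosyltransferase had the highest mean normalized count of all 261 genes, 17956 in the authors' deposited table. Of the cytoskeleton, a myosin motor protein (ptg000027l.583) had -1.31 ± 0.25 and beta tubulin (ptg000007l.478) -1.17 ± 0.33, while a dynein light chain (ptg000005l.379) had 1.27 ± 0.39, in the authors' deposited table. A HeLo domain protein (ptg000027l.495) had 1.76 ± 0.51 and a heterokaryon incompatibility protein (ptg000021l.534) -1.26 ± 0.24 in the authors' deposited table, both of domain types that act when unlike hyphae fuse.

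The 67 genes with no annotation rose in 55 cases and fell in 12. Their median mean normalized count was 88.5, beside 576 for the 194 annotated genes, and their median SE was 0.47, beside 0.38, in the authors' deposited table. The largest rises were ptg000021l.664 at 3.87 ± 0.93 and ptg000008l.406 at 3.17 ± 0.68, both at mean counts near 11 (10.6 and 10.8), while the largest falls were -1.62 ± 0.31 for ptg000016l.461 and -1.51 ± 0.43 for ptg000018l.375, in the authors' deposited table. A further 16 annotated genes belong to no functional group, 8 that rose and 8 that fell. Their largest rise was a P-loop nucleoside triphosphate hydrolase (ptg000015l.18) at 2.69 ± 0.55 and their largest fall a DUF221 protein (ptg000015l.228) at -1.44 ± 0.32 in the authors' deposited table. Of the 66 listed genes with the lowest mean counts 56 rose, 10 fell and 30 had an annotation, and of the 65 with the highest 50 rose, 15 fell and 57 had one.

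Of the 261 listed genes, 59 carried gene numbers that follow each other on a contig. They form 27 such runs, 22 of 2 genes and 5 of 3 genes. In 21 runs all members rose, in 2 all fell and in 4 the directions differed. Genes with steep rises lay in such runs: 3-dehydroquinase is numbered next to the dioxygenase ptg000008l.232, and phenol 2-monooxygenase next to the P450 ptg000007l.258. The rhodopsin domain proteins flank ATP phosphoribosyltransferase, and the N-acetyltransferase ptg000009l.300 is followed by a carboxylic ester hydrolase (ptg000009l.301, 1.13 ± 0.36) and an HEPN domain protein (ptg000009l.302, 1.3 ± 0.24) in the authors' deposited table. A run of 3 regulators joined a Zn(2)-C6 protein (ptg000006l.14, 1.54 ± 0.46), a transcription factor domain protein (ptg000006l.15, 1.36 ± 0.29) and a C2H2 protein (ptg000006l.16, 1.02 ± 0.23) in the authors' deposited table. Malic enzyme adjoined an HPP transmembrane protein (ptg000010l.271, 1.46 ± 0.3), and the glutathione S-transferase domain protein that fell adjoined the P450 that fell (ptg000019l.531), in the authors' deposited table. Other runs joined the reverse transcriptase ptg000027l.597 with the N-acyltransferase ptg000027l.598, the DNA helicase with a clavaminate synthase-like protein (ptg000017l.2, 1.33 ± 0.36), and a BTB domain protein (ptg000002l.416, 1.52 ± 0.45) with the cytochrome c oxidase assembly factor ptg000002l.417 in the authors' deposited table. A ubiquitin-like protease (ptg000015l.272, 1.35 ± 0.36) preceded the carboxymuconolactone decarboxylase-like protein, and a HAT protein (ptg000032l.12, 1.1 ± 0.23) the FAD-binding PCMH-type protein in the authors' deposited table. Runs of opposite direction paired pisatin demethylase with a major facilitator protein (ptg000006l.129, -1.01 ± 0.32) and the FAD-binding protein ptg000015l.287 with a DUF1749 protein (ptg000015l.288, -1.04 ± 0.25) in the authors' deposited table. Where transcripts of neighbours overlap, reads may be shared between them, and whether counting used strand is not given in the sources used here.

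**Figure D4:**
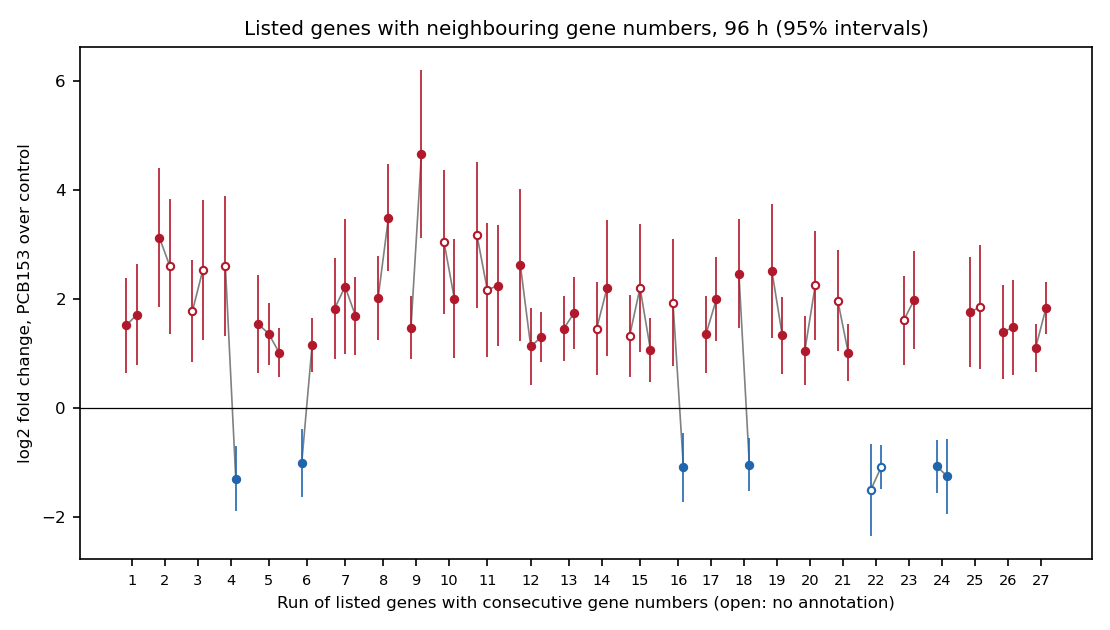
Log2 fold changes of PCB153 over control at 96 h with 95% intervals for the 59 listed genes whose gene numbers follow each other on a contig, joined by a grey line within each of 27 runs. Red marks genes that rose, blue genes that fell and open symbols genes with no annotation. Members of 23 runs share a direction, and runs 4, 6, 16 and 18 hold both.

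After 24 h with the same dose of PCB153 the authors listed 6 genes, 0.053% of 11313, and 0 of them is among the 261, so no gene allowed a test of one time against the other. The times have separate control samples. Values of the 261 genes at 24 h were not analysed here.

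The other congeners at 96 h were compared with the same 5 control samples, at the same dose. The authors listed 1 gene (0.00884%) for PCB52, 9 (0.0796%) for PCB101 and 821 (7.26%) for PCB180. Their direct comparison of PCB180 with PCB153 holds 1 gene, which is not among the 261. For genes listed with both congeners of a pair the difference of log2 fold changes was tested over 181 gene and pair combinations, with a two-sided normal test that assumed a correlation of 0.5 for the shared control. For PCB153 minus PCB180, 0 of 171 genes (0%) passed a Benjamini-Hochberg adjusted p of 0.05, the smallest being 0.146, while 18 had an unadjusted p under 0.05. The 90 genes not listed for PCB180 did not enter this test. Genes that entered had passed the listing thresholds on the same values in both comparisons. A count of 0 therefore does not show that the congeners acted alike. With an assumed correlation of 0.75, 18 differences from PCB180 and 3 from PCB101 passed. At a correlation of 0.5, the unadjusted 95% intervals of the differences from PCB180 had a median half-width of 0.80. Differences smaller than that were not resolved for a typical gene. The adjusted test resolved less, since differences of 1.24 and 2.3 did not pass it. Of the 18 with an unadjusted p under 0.05 in the normal test at a correlation of 0.5, 15 had the larger change with PCB180 and 3 with PCB153. The same split over all 171 genes was not counted, so these 15 and 3 have no share to be read beside. The genes given next were chosen after their differences were seen.

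The 3 genes with the larger change under PCB153, picked by unadjusted p, were of aromatic ring breakdown, and the authors' direct comparison lists none of them. That group has 5 members listed for both congeners, and for the others the interval held 0. The difference was 1.01 (95% interval -0.57 to 2.59) for 3-dehydroquinase and 0.53 (95% interval -0.26 to 1.32) for the carboxymuconolactone decarboxylase-like protein. The intradiol dioxygenase ptg000021l.252 had 4.43 ± 0.71 with PCB153 and 2.14 ± 0.75 with PCB180 in the authors' deposited table, a difference of 2.3 (95% interval 0.86 to 3.73). Phenol 2-monooxygenase had 3.49 ± 0.5 with PCB153, 2.33 ± 0.53 with PCB180 and 2.44 ± 0.5 with PCB101 in the authors' deposited table. Its difference was 1.17 (95% interval 0.15 to 2.18) from PCB180 and 1.05 (95% interval 0.07 to 2.04) from PCB101. Benzoate 4-monooxygenase had 2.11 ± 0.27 with PCB153 and 1.43 ± 0.29 with PCB180 in the authors' deposited table, a difference of 0.68 (95% interval 0.14 to 1.23). The 15 with the larger change under PCB180 held rises and falls. The smallest unadjusted p of all 171 was 0.00115, in this normal test run gene by gene. That p belonged to a gene with no annotation that had -1.27 with PCB153 and -2.51 with PCB180 in the authors' deposited table, a difference of 1.24 (95% interval 0.49 to 1.99). The putative cell signalling protein had -1.09 ± 0.29 with PCB153 and -1.9 ± 0.31 with PCB180 in the authors' deposited table, a difference of 0.82 (95% interval 0.22 to 1.41). The glutathione S-transferase domain protein had -1.07 ± 0.25 with PCB153 and -1.76 ± 0.26 with PCB180 in the authors' deposited table, a difference of 0.69 (95% interval 0.19 to 1.19). Aspartate aminotransferase had 1.99 ± 0.47 with PCB153 and 3.02 ± 0.49 with PCB180 in the authors' deposited table, a difference of -1.04 (95% interval -1.98 to -0.1). The epoxide hydrolase had 1.5 ± 0.32 with PCB153 and 2.31 ± 0.34 with PCB180 in the authors' deposited table, a difference of -0.81 (95% interval -1.45 to -0.16). None of these differences passed the adjustment within its pair, nor did any of the 9 genes compared with PCB101 or the 1 compared with PCB52. The RRM domain protein ptg000003l.539 had -1.24 ± 0.22 with PCB153, -1.86 ± 0.23 with PCB180, -1.14 ± 0.22 with PCB101 and -1.1 ± 0.22 with PCB52 in the authors' deposited table, and its difference from PCB180 was 0.62 (95% interval 0.18 to 1.06). For the other genes listed with both PCB153 and PCB101, the values of these congeners stand side by side as follows, over the same control. The intradiol dioxygenase ptg000021l.252 had 4.43 ± 0.71 with PCB153 and 3.67 ± 0.71 with PCB101, and ptg000008l.232 had 1.48 ± 0.3 with PCB153 and 1.22 ± 0.3 with PCB101, in the authors' deposited table. The FAD-binding protein ptg000015l.287 had 2.47 ± 0.51 with PCB153 and 2.16 ± 0.51 with PCB101, and the PCMH-type protein ptg000032l.13 had 1.84 ± 0.24 with PCB153 and 1.35 ± 0.24 with PCB101, in the authors' deposited table. The Zn(2)-C6 protein ptg000015l.431 had 1.91 ± 0.26 with PCB153 and 1.41 ± 0.26 with PCB101, the protein kinase ptg000027l.189 1.62 ± 0.34 with PCB153 and 1.41 ± 0.34 with PCB101, and a major facilitator protein (ptg000017l.105) 1.33 ± 0.23 with PCB153 and 1.17 ± 0.23 with PCB101, in the authors' deposited table. The interval of the difference held 0 for these 7 genes except the PCMH-type protein, whose difference was 0.49 (95% interval 0.01 to 0.97). Uricase, adenine deaminase, allantoicase, cytochrome c and the F-box protein were not listed for PCB180, so the normal test of the difference was not run for them. The authors' direct comparison of PCB180 with PCB153, adjusted over 11313 genes, lists none of them. Absence from the PCB180 list does not show a response particular to PCB153.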

How the data were processed

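Polyadenylated RNA of the mycelium was sequenced, per the labels' protocols, in 50 samples of 10 groups. Which aligner, counter, genome build, annotation and test program made the tables is not given in the sources used here. For every listed gene the authors deposited, per the file headers, a log2 ratio of the groups with its error, a Wald-type score, p-values before and after adjustment, and a signal, the normalized count averaged over samples. The deposited score equals the log2 ratio over its error and the p-value is its two-sided normal p, as checked on all 1102 entries. Names came from the deposited table with annotation, for 194 of the 261 genes. The number of genes behind each adjustment is the one for which both p-values together give whole ranks (tolerance 0.0001). The members and lists were chosen with earlier results of these data known.

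No gene was refitted, since values per sample were not used here. The 95% intervals are the fold change ± 1.96 standard errors. Congeners were compared by a normal test of the difference, with Benjamini-Hochberg adjustment within a pair. Word lists had been planned for the functions, but the words for signalling also matched the end of "containing protein", so each of 178 genes was placed in 1 of 18 groups by reading its annotation, a choice made after seeing the data, and 16 annotated genes were left outside. Named genes are the largest rises and falls, the extreme or all members of a group, those with the smallest p or near a threshold, those in runs, and those compared between congeners. Python 3.11.15, numpy 2.4.6, scipy 1.17.1 and pandas 2.3.3 were used, and the steps were tested on simulated data.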

Additional observations from a re-analysis of the deposited data

Results flagged for a closer look

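L-galactonate dehydratase (ptg000017l.227), a fungal enzyme of galacturonate breakdown, is the only gene in the authors' direct comparison of PCB180 with PCB153 at 96 h, where the authors' deposited table gives a log2 fold change of 0.86 ± 0.16 (SE, PCB180 over PCB153; adjusted p 0.000468). It stands out because the effects of the congeners differ by a test of the difference itself, in a comparison other than that of PCB153 with control. It was listed for PCB180 against control at 1.05 ± 0.17 in the authors' deposited table and not for PCB153, for which the difference of these values gives 0.19. Outliers among samples could not be looked for without values per sample.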

How the results depend on the processing

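More genes rose than fell under each stricter limit, while the counts shrank. These limits cut the same 261 genes on the values that listed them, so they give no separate support for the direction. With an adjusted p under 0.01, 75 genes rose and 23 fell, and with 0.001 they were 33 and 7. With log2 fold changes of 1.5 or more in size they were 121 and 7, and with 2 or more 52 and 0, as no listed fall went past -1.63. With a Bonferroni limit of 0.05 they were 34 and 7. Without the lowest 25% of listed genes by mean count (104 or less) or with annotated genes only, both counts stayed within 1.5 times. An interval of 99% in place of 95% left 20 genes wholly past a log2 fold change of 1. A correlation of 0.75 between congener comparisons called 18 differences from PCB180 and 3 from PCB101, whereas 0, 0.25 and an adjustment over all pairs called 0. The 1 gene of the direct comparison implies a correlation of 0.53, taking its error under PCB153 from the median ratio of errors, a value added after seeing the data. The SE for PCB180 was 1.05 times that for PCB153 at the median of 171 genes, while those for PCB101 and PCB153 had a median ratio of 1.0. Planned word lists gave the group counts within 1.5 times in 21 of 30 cases, and the signalling words gave 72 and 35. An adjusted p under 0.01 moved 28 of 36 group counts by more. Leaving out genes annotated only by a domain or family moved 22 of 36 by more. Leaving out single replicates, another normalization and another test program need values per sample and were not run. No paired analysis was possible because values per sample were not used here.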
